A study of Homo sapiens with 12 samples.

Results

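The epidermal differentiation complex is a block of genes on the long arm of human chromosome 1 that serve the outer layer of skin and other stratified epithelia, with genes for S100 proteins at its edges. It was examined here as the called H3K27ac peaks that overlap chr1:151995000-153620000 on hg19, an interval of 1.625 Mb. H3K27ac, the acetylation of a lysine in the tail of histone H3, marks promoters and enhancers in use. Overlapping peaks of the 6 libraries (1 bp or more) were joined into single regions, and 59 of the 58994 regions of the genome fell in the interval. The interval had been picked because an earlier look at these same peak lists showed it to differ between lines, so the numbers of regions by line are given as a description, with no test.

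The cells were BxPC3, Panc327 and SUIT2, 3 human pancreatic ductal adenocarcinoma cell lines. All were untreated and grown in standard culture, with no allele, agent or time point to set groups apart. Each line gave 2 H3K27ac libraries (replicates 1 and 2) and 2 input libraries made without antibody, 12 samples in all, and 1 list of peaks was used for each H3K27ac library. Whether the 2 replicates were grown apart is not stated in the labels, so spreads measure only the difference between these libraries. Each line is a single cell line, and none is skin. An exact permutation test of 2 libraries against 2 cannot give a p below 0.33, and lines were therefore compared by their values alone.

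The complex holds genes that build the cornified envelope, the protein shell that replaces the plasma membrane of dying keratinocytes. Involucrin (IVL), loricrin (LOR), the small proline-rich SPRR proteins and the late cornified envelope LCE proteins are cross-linked into that shell. Filaggrin (FLG), filaggrin 2 (FLG2), hornerin (HRNR), repetin (RPTN), cornulin (CRNN), trichohyalin (TCHH) and TCHHL1 join an S100-type calcium-binding start to long repeats. The S100 proteins are small calcium-binding proteins; S100A8 and S100A9 form calprotectin of neutrophils and inflamed epithelium, while S100A6, S100A11, S100A14 and S100A16 are made in many epithelia. PGLYRP3 and PGLYRP4 are secreted proteins that bind bacterial peptidoglycan.

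The 38 genes listed for the cluster follow one another along the chromosome from S100A11 to S100A1. In the RefSeq gene table of GRCh38.p14, which was used for the order of neighbours alone, 62 protein-coding genes ran from the first to the last of them, 24 of which were not on the list (17 of these were LCE genes). S100A11 stood alone at one edge and the other 14 S100 genes stood together at the opposite edge. The fused S100-type genes, the LCE genes, IVL and the SPRR genes, LOR and the PGLYRP genes came between in that order. No gene positions on hg19 were used, so no region below is assigned to a gene, and the labelled epithelial cell type could not be checked against marker genes.

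Promoter sequences show how unlike the genes of this block are. RefSeq promoters of GRCh38.p14 were matched for 36 of the 38 genes, with 43 starts among them (SPRR2D and SPRR2E were not matched). In the 250 bases before each start, both strands were searched for the AP-1 motif TGANTCA, the TATA box TATAAA and the GC box GGGCGG. The AP-1 motif was found in 6 of 7 promoters of fused S100-type genes and in 8 of 12 of the cornified envelope genes, but in 4 of 22 promoters of S100 genes, against 6.57% of all 35116 promoters. The TATAAA sequence was found, at any position, in 5 of 7, 8 of 12 and 8 of 22, against 10.7%. In S100A12 it began 8 bases before the start, and at a start of S100A8 126 bases before it. Several starts of the same gene were counted separately. The GC box was found in 0 of 7, 0 of 12 and 6 of 22, against 42.6%. All 35116 promoters include those of genes that code for no protein. Over the 22199 promoters of protein-coding genes the shares were 5.36% for AP-1, 9.0% for TATAAA and 53.7% for the GC box. Both PGLYRP promoters held a GC box and neither held the other motifs. LCE3D and LCE3E, the only LCE genes among the 12 promoters of cornified envelope genes, matched none of these motifs. The matches of that group thus came from IVL, LOR and SPRR genes, and the 17 LCE genes not on the list were not counted in it. These matches describe letters in a window and are not measured binding sites.

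The following promoters were picked after the matches were seen: 5 from the inner genes and, last, S100A6, with its 3 GC boxes, of which 2 overlap. S100A6 does not stand for all S100 promoters, of which 6 of 22 held a GC box. Each line gives the 150 bases before the start, 5′ to 3′ along the gene, with matches in capitals. On GRCh38.p14, a different build from that of the peaks, they lie at chr1:152325240-152325389 (FLG, minus strand), chr1:152414264-152414413 (CRNN, minus), chr1:152908396-152908545 (IVL, plus), chr1:152983931-152984080 (SPRR1A, plus), chr1:153031053-153031202 (SPRR1B, plus) and chr1:153535992-153536141 (S100A6, minus).
FLG: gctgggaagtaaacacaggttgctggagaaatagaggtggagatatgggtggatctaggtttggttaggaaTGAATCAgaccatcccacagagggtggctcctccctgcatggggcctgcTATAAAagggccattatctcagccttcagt
CRNN: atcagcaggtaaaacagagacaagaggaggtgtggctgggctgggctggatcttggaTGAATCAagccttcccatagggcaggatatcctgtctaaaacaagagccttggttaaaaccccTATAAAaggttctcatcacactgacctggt
IVL: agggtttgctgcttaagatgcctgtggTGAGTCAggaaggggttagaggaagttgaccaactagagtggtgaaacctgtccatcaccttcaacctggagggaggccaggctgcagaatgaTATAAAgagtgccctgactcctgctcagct
SPRR1A: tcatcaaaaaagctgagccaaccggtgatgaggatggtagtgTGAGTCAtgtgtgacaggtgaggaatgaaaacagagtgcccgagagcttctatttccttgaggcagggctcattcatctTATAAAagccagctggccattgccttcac
SPRR1B: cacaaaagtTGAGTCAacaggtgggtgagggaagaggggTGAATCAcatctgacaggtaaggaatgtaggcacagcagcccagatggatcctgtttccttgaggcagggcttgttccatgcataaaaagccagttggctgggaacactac
S100A6: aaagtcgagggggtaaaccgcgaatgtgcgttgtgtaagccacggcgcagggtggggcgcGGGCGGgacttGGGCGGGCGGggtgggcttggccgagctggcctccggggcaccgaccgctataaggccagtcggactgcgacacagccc

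Counted over their 250 bases, the 43 matched promoters of the listed genes were poor in CpG, with a median of 2. The median was 11 over all promoters and 16 over those of protein-coding genes. FLG held 1 CpG, CRNN, IVL and SPRR1B held 0, SPRR1A held 2 and S100A6 held 24. The 22 promoters of S100 genes had a median of 4. In FLG, CRNN and IVL the TATA box began 30 bases before the start, and in SPRR1A 29 bases before it. The AP-1 motif began 79 bases before the start in FLG, 93 in CRNN, 123 in IVL and 108 in SPRR1A, while SPRR1B held it at 141 and 111 bases.

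BxPC3 carried far more called H3K27ac in the interval than the other lines. BxPC3 replicates 1 and 2 had 54 and 57 peaks there, Panc327 had 21 and 18, and SUIT2 had 18 and 18. These peaks covered 83.1 and 91.6 kb in BxPC3, 33.0 and 41.7 kb in Panc327 replicates 1 and 2, and 48.1 and 50.4 kb in SUIT2. Means were 87.4 ± 5.99 kb in BxPC3, 37.4 ± 6.16 kb in Panc327 and 49.3 ± 1.65 kb in SUIT2 (SD, n = 2). Both BxPC3 libraries lay above all 4 others in both measures, and the SUIT2 libraries lay above the Panc327 libraries in covered length alone.

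The breadth of the lists as a whole did not follow this order, although the BxPC3 lists held the most peaks. SUIT2 peaks covered 60.1 and 63.3 Mb of the genome, BxPC3 peaks 48.7 and 54.6 Mb, and Panc327 peaks 34.1 and 46.3 Mb. As a share of all covered bases of its list, the interval took 0.171% and 0.168% in BxPC3, 0.0969% and 0.0901% in Panc327 replicates 1 and 2, and 0.0800% and 0.0796% in SUIT2. The BxPC3 share was thus the highest although both SUIT2 lists were broader. By number, replicate 1 of BxPC3 had 34113 peaks over the genome and replicate 2 had 38335. The SUIT2 lists were shorter, at 29983 and 31421 peaks, as were the Panc327 lists, at 27776 and 29139. Of all peaks of its list, the interval still took the largest share for BxPC3, 0.158% and 0.149%. That share was 0.0600% and 0.0573% for SUIT2, while Panc327 replicates 1 and 2 had 0.0756% and 0.0618%. The peak lists do not state library depth, so a line with no called peak may still hold acetylation under the calling threshold. Every peak in the 6 lists had a −log10 p of at least 10.

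Of the 59 regions, BxPC3 marked 48 (81.4%, against 49.7% of all regions), where a line marks a region when both of its libraries have a peak in it. Panc327 marked 15 (25.4%, against 33.7%) and SUIT2 marked 16 (27.1%, against 45.6%). Regions marked in BxPC3 with no peak in the other 4 libraries numbered 28, or 47.5% of the interval's regions, against 12.9% of all regions of the genome. Panc327 had 1 region to itself (1.69%, against 5.79% of all regions), and SUIT2 had 0, against 13%. Peaks in all 6 libraries were found in 9 regions (15.3%, against 21.6% of all regions). A further 4 were marked in BxPC3 and Panc327 alone (3.82% of all regions), 2 in BxPC3 and SUIT2 alone (4.18%), and 1 in Panc327 and SUIT2 alone (1.17%). The remaining 14 were called in a single library of at least 1 line (37.6% of all regions), among them 8 with a peak in a single BxPC3 library and nowhere else. Because the interval was picked from these peaks, the genome-wide shares are given for scale and nothing is read from the difference.

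For scale, the same counts were made in the stretches of equal length on either side. Before the interval, 7 of 100 regions were marked in BxPC3 alone and 37 were called in all 6 libraries. After it, 5 of 89 were marked in BxPC3 alone and 42 were called in all 6. The flank after the interval held 13 Panc327-only and 2 SUIT2-only regions, and the flank before it held 6 and 10.

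**Figure D1:**
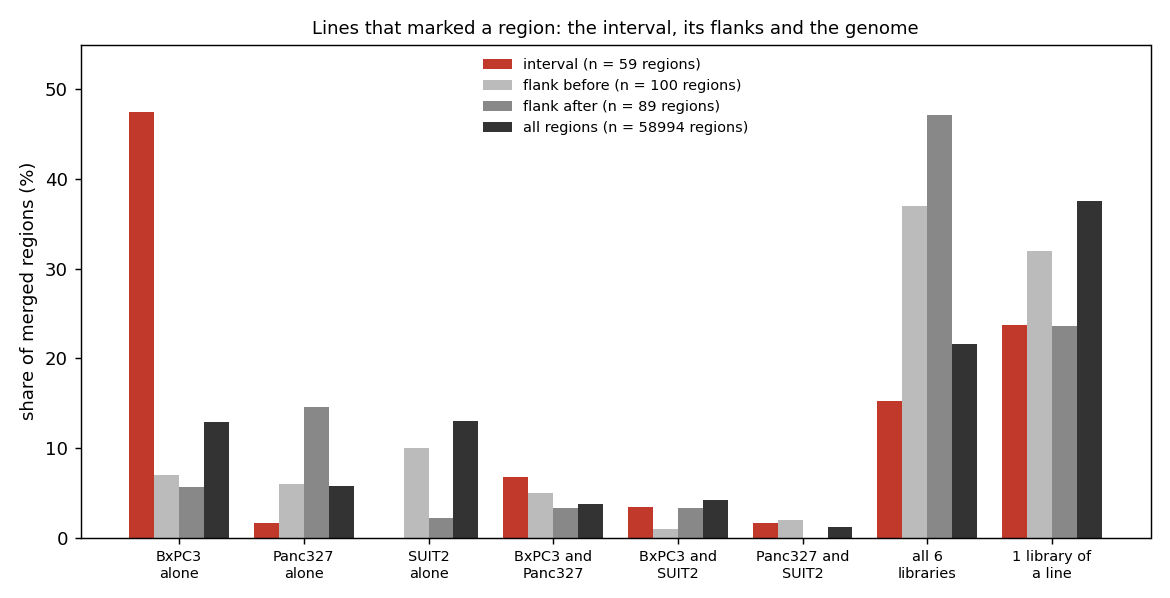
Share of merged regions (percent, y axis) by the lines that marked them, for the interval (59 regions), its flanks (100 and 89 regions) and the genome (58994 regions); the last group holds regions called in 1 library of at least 1 line. BxPC3-only regions make up 47.5% of the interval and 12.9% of the genome, and the flanks are led by regions called in all 6 libraries.

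Cut into windows of 100 kb from its start, the interval was divided into 3 stretches after the values were seen. The middle was set as the longest run of windows with no Panc327 peak, so its Panc327 count of 0 follows from that choice. All lines had peaks in the first window and in the last 3, while Panc327 had none in the 13 windows between, from 152095000 to 153394999 (1.3 Mb). In these middle windows BxPC3 had 33 and 36 peaks, SUIT2 had 3 and 2, and Panc327 had 0 and 0. They covered 36.9 and 40.8 kb in BxPC3 against 2.19 and 2.52 kb in SUIT2. The middle thus held 44.3% and 44.6% of the covered bases that BxPC3 had in the interval, and 4.55% and 5.0% of those of SUIT2.

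The high end, from 153395000 to 153620000, was marked in all 3 lines, over the greatest length in SUIT2 and the least in Panc327. It held 32.0 and 34.3 kb of covered bases in BxPC3, 25.5 and 30.0 kb in Panc327 replicates 1 and 2, and 36.3 and 37.8 kb in SUIT2. At the low end, the first 100 kb, the values were 14.3 and 16.5 kb in BxPC3, 7.52 and 11.7 kb in Panc327 replicates 1 and 2, and 9.55 and 10.1 kb in SUIT2. The most covered library was a SUIT2 library at the high end and a BxPC3 library at the low end, and a Panc327 library was the least covered at both.

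**Figure D2:**
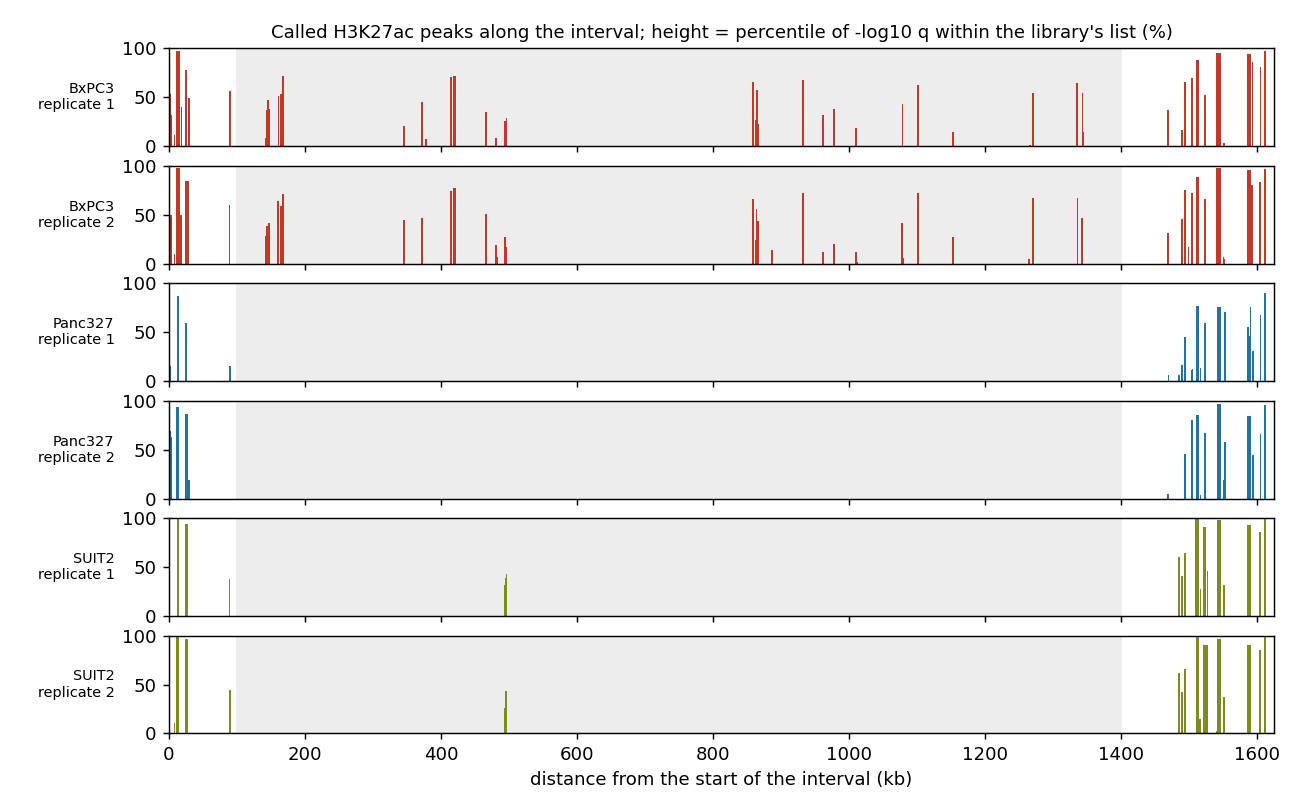
Called peaks of the 6 libraries along the interval (x axis, distance from its start in kb); the height of a bar is the percentile of the peak's −log10 q within its own list, bars under 2.5 kb are drawn 2.5 kb wide, and the grey band is the 1.3 Mb middle. All libraries have peaks at both ends, while in the band BxPC3 has 33 and 36, SUIT2 3 and 2, and Panc327 0, by which the band was set.

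All 36 regions of the middle were called in at least 1 BxPC3 library. BxPC3 alone marked 27 of them, BxPC3 and SUIT2 marked 2, and 7 had a peak in a single BxPC3 library (2 in replicate 1 and 5 in replicate 2). No region of the middle could be called in all 6 libraries, because the middle was set by its lack of Panc327 peaks. At the high end, 7 of 16 regions were called in all 6 libraries and 0 were marked in BxPC3 alone. The low end held 2 regions called in all 6 libraries among its 7, and 1 marked in BxPC3 alone.

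The longest stretch with no Panc327 peak ran from 152083939 to 153463124, or 1.38 Mb, and held 29 regions marked in BxPC3. Panc327 has 9782 such stretches with at least 1 merged region in the genome, and 3 of them, this one included, held 29 or more. In SUIT2 the longest was 988 kb, from 152490937 to 153478778, with 15 regions marked in BxPC3, and the next was 404 kb, from 152083926 to 152487632, with 13. The small SUIT2 peaks between 152487633 and 152490936 separate them. Stretches with at least as many BxPC3-marked regions numbered 15 and 22 among the 10390 of SUIT2. Because the interval was picked from these peaks, the genome-wide numbers of stretches are given for scale and nothing is read from them.

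BxPC3 itself did not mark the middle evenly. Its longest empty stretch, from 152490565 to 152852148, measured 362 kb, and the next, from 152164769 to 152339533, measured 175 kb. No library of any line had a peak from 152490937 to 152852148. The most covered windows of the middle were the second, before both gaps (10.1 and 10.6 kb in BxPC3 replicates 1 and 2), and the fifth, between them (9.57 and 10.3 kb). The windows from the ninth to the fourteenth, past both gaps, held 1.26 to 5.61 kb per library.

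**Figure D3:**
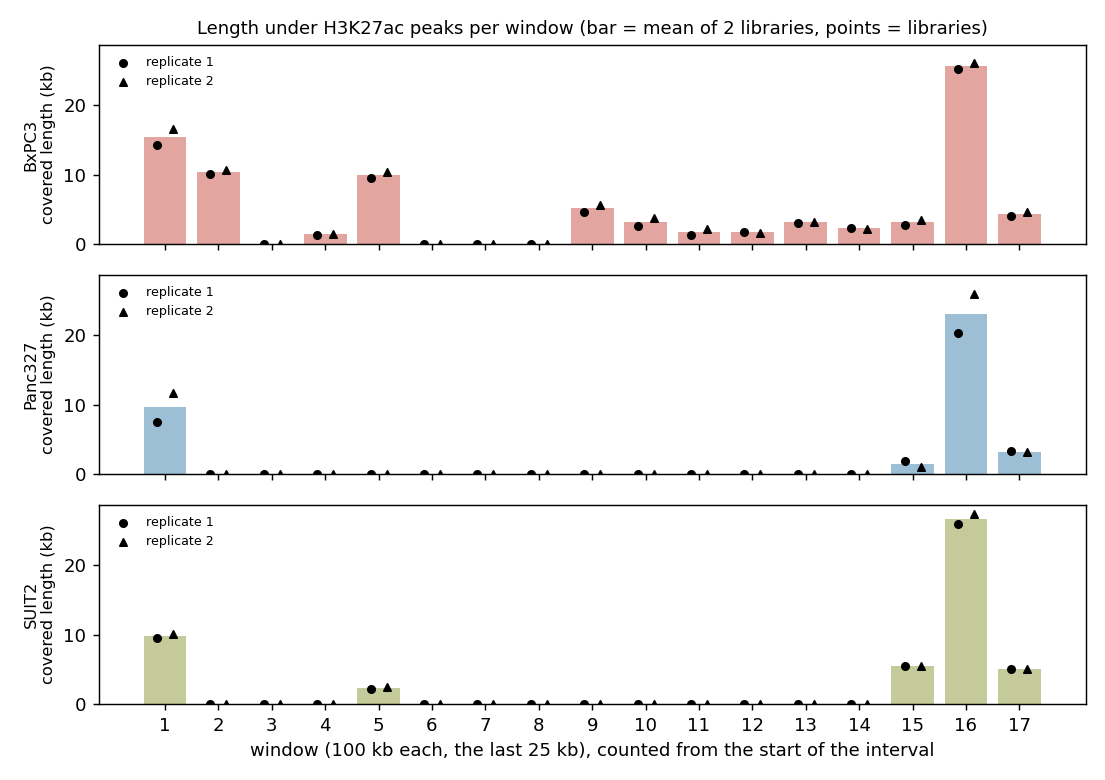
Length under peaks (kb, y axis) in each 100 kb window of the interval, counted from its start; bars are the mean of 2 libraries and points are the libraries, and the last window is 25 kb long. BxPC3 is covered in windows 2, 4, 5 and 9 to 14, where Panc327 has 0 kb and SUIT2 has at most 2.52 kb, in window 5.

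Of the 8 most covered BxPC3-only regions, 3 neighboured one another at 152154428-152156683, 152158276-152160889 and 152161153-152164768. The last of these was the most covered BxPC3-only region of the interval, with 3437 and 3616 bp in replicates 1 and 2. Its fold over local background was 29.4 and 27, at percentiles 72.2 and 71.2 of the −log10 q values of those lists. The fold, −log10 p and −log10 q of a peak are the authors' values and are used only within a list. The other regions of this group covered 1823 and 2256 bp (fold 11.1 and 21.0) and 2265 and 2548 bp (fold 16.1 and 19.8).

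A pair followed at 152408369-152411401 and 152413001-152416589. The first covered 3003 and 2924 bp with a fold of 26.2 and 32.8. The second covered 3392 and 3589 bp with a fold of 29.5 and 37.4, the highest folds of any BxPC3-only region in the interval in both libraries. They stood at percentiles 71.3 and 77.5 of their lists. A weaker region lay beyond them at 152459657-152461486, with 1750 and 1723 bp and a fold of 8.92 and 13.8.

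Past the 362 kb gap, the most covered BxPC3-only regions were 152857765-152861420 and 153263823-153266578. The first covered 2867 and 3098 bp with a fold of 19.6 and 16.7, and replicate 1 called it as 2 peaks, as did replicate 2. The second covered 2755 and 2509 bp, and its fold of 9.55 in replicate 1 and 23.1 in replicate 2 was the least alike of the 8 most covered regions.

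These regions were of middling strength within BxPC3. The 28 BxPC3-only regions had a median fold of 12.6 and 13.4 in replicates 1 and 2 and a median percentile of 44.5 and 46.6 by −log10 q. None reached the top 10% of its list, while 12 and 13 of the 28 lay above the list's median. BxPC3-only regions over the genome, 7631 in number, had lower medians, with folds of 9.84 and 10.7 and percentiles of 29.8 and 37.6. Of these 7631, 20 were in the top 10% in each replicate, and 1418 and 2154 lay above the list's median. Absence from the top 10% was thus shared with nearly all BxPC3-only regions. The weakest of the 28 stood at percentile 0.885 in replicate 1 and 5.26 in replicate 2, near the calling threshold. Summits of the strongest peak of each of the 2 BxPC3 libraries fell a median of 53 bp apart in the 28 regions, and within 250 bp in 22 of them.

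**Figure D4:**
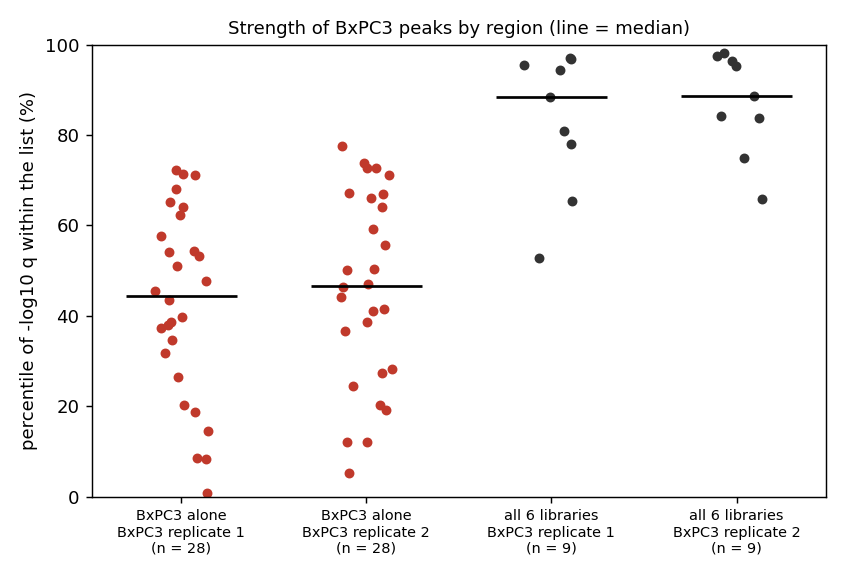
Percentile of −log10 q within the BxPC3 list (y axis) for the 28 BxPC3-only regions and the 9 regions called in all 6 libraries, in each BxPC3 library; points are regions and lines are medians. BxPC3-only regions have medians of 44.5 and 46.6 and the shared regions of 88.4 and 88.5.

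The 2 middle regions that SUIT2 also marked lay close together at the edge of the long gap. At 152487633-152488349 BxPC3 covered 612 and 557 bp and SUIT2 511 and 595 bp. At 152488893-152490936 BxPC3 covered 483 and 754 bp and SUIT2 1679 and 1927 bp, so there both SUIT2 libraries exceeded both BxPC3 libraries. The SUIT2 folds at that region were 16.8 and 15.4, at percentiles 43.3 and 43.1 of its lists.

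The 9 regions called in all 6 libraries had median percentiles by −log10 q of 88.4 and 88.5 in BxPC3, 75.5 and 85.0 in Panc327 replicates 1 and 2, and 93.5 and 96.3 in SUIT2. Over all 12721 regions of the genome called in all 6 libraries the medians were 79.4 and 81.8 for BxPC3, 75.6 and 75.2 for Panc327 and 76.6 and 77.6 for SUIT2, so the 9 regions stood at about that level in Panc327 replicate 1. They lay at 152005665-152011242 and 152018113-152025121 at the low end. At the high end they lay at 153487545-153489382, 153504523-153510137, 153515483-153522611, 153534049-153541863, 153579814-153586322, 153598478-153600608 and 153605455-153608638. They held 42.0% and 41.2% of the covered bases of the interval in BxPC3, 79.3% and 72.8% in Panc327 replicates 1 and 2, and 81.8% and 80.9% in SUIT2. In each SUIT2 library 7 of the 9 were in the top 10% of the list by −log10 q. The number was 4 in each BxPC3 library, and 0 and 3 in Panc327 replicates 1 and 2. Of the 12721 such regions of the genome, 2835 and 2962 were in the top 10% in SUIT2, 3232 and 3625 in BxPC3, and 2693 and 2700 in Panc327. Being called 6 times over is a demand that favours strong peaks.

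The highest fold of the interval in both Panc327 and both SUIT2 libraries was in the last of these, 153605455-153608638. Its fold was 127 and 29.3 in Panc327 and 160 and 167 in SUIT2, and 56.2 and 67.9 in BxPC3. In SUIT2 it ranked 91 of 29983 and 61 of 31421 peaks by fold. Its summits lay within 84 bp of each other over all 6 libraries, from 153606679 to 153606763. BxPC3 had its highest folds elsewhere: 63.8 in replicate 1 at 153534049-153541863 and 88.3 in replicate 2 at 152005665-152011242.

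Covered length within the shared regions differed by line in a few cases. At 153515483-153522611 SUIT2 covered 6745 and 6847 bp, against 1756 and 1892 bp in BxPC3 and 1573 and 1272 bp in Panc327. Both SUIT2 libraries stood far above the other 4 there. The summits of the strongest peak of each of the 6 libraries fell within 58 bp. In SUIT2 replicate 1 the length came from 2 peaks, of which the weaker lay apart from these summits, at 153520825-153522611. At 153504523-153510137 SUIT2 covered 5436 and 5576 bp, BxPC3 4198 and 4351 bp, and Panc327 4134 and 4295 bp. SUIT2 stood above the other lines here too, by a smaller margin.

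At 153534049-153541863 BxPC3 was the broadest, with 7482 and 7569 bp, against 5760 and 6072 bp in Panc327 and 6055 and 6307 bp in SUIT2. The widest peak of the interval lay here in both BxPC3 libraries, in both Panc327 libraries and in SUIT2 replicate 1, but not in SUIT2 replicate 2. The summits of this region were spread over 3846 bp, the most of the 9 regions, whose median spread was 189 bp. At 152018113-152025121 BxPC3 covered 5342 and 6110 bp, Panc327 2523 and 5024 bp, and SUIT2 4246 and 4566 bp. The Panc327 pair was so far apart there that it overlapped SUIT2.

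**Figure D5:**
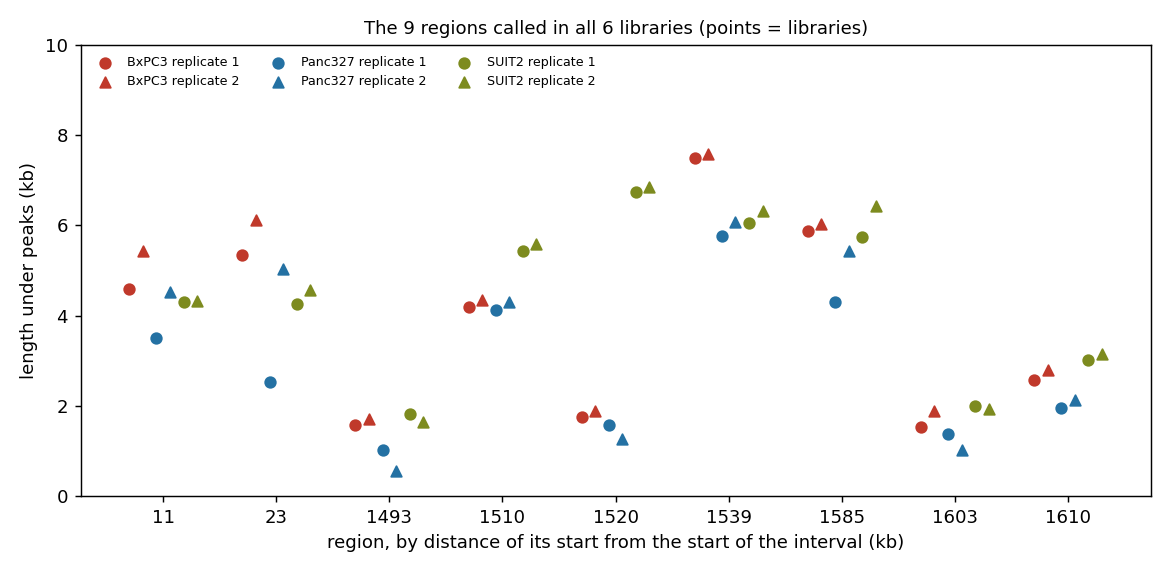
Length under peaks (kb, y axis) of each library in the 9 regions called in all 6 libraries, ordered by distance from the start of the interval (kb); points are libraries. SUIT2 stands apart in the fifth region from the left, with 6745 and 6847 bp, while the lines lie closer together in most other regions.

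Some regions of the ends were held by some lines and not others. Panc327 and BxPC3 shared 4 regions with no SUIT2 peak, a number that was 2 at a −log10 q of at least 20 and 1 when peaks had to fill 50% of a region. The broadest, 153497403-153500773, was covered over 3083 and 2930 bp in BxPC3 and 963 and 3371 bp in Panc327, so the Panc327 libraries differed more from each other than the BxPC3 libraries did. At 153586829-153589499 the values were 2172 and 2660 bp in BxPC3 and 1260 and 1179 bp in Panc327. The others were short, 151995424-151996678 with 643 to 1255 bp and 153463107-153463990 with 291 to 884 bp per library.

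The only region of Panc327 alone was 153546294-153548773, with 1708 and 2480 bp and a fold of 55.6 and 12.7 in replicates 1 and 2. It stood at percentiles 70.4 and 57.8 of those lists. Panc327 and SUIT2 shared 153510389-153511706, which covered 532 and 952 bp in Panc327 and 1090 and 1318 bp in SUIT2. SUIT2 had 1 broad region that BxPC3 lacked, 153478779-153481550, picked after its values were seen. SUIT2 covered 2530 and 2772 bp there with a fold of 31.9 and 28.2, and Panc327 replicate 1 called 286 bp of it with a fold of 8.05.

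Similarity of the lists within the interval was given by the Jaccard index, which divides the bases shared by a pair of lists by the bases found in at least 1 of them. It was 0.826 for the BxPC3 pair, 0.661 for the Panc327 pair and 0.909 for the SUIT2 pair, and each was above every index between lines in the interval. Between lines, Panc327 and SUIT2 had a mean of 0.503 ± 0.0208 (SD over 4 pairs that share libraries), BxPC3 and Panc327 0.358 ± 0.0331, and BxPC3 and SUIT2 0.339 ± 0.00684. Over the genome the order of the means was different, with 0.404 for BxPC3 and Panc327, 0.392 for BxPC3 and SUIT2, and 0.312 for Panc327 and SUIT2. The order of the first 2 depended on the Panc327 library. Replicate 1 of Panc327 gave 0.362 and 0.346 with the BxPC3 libraries, below the 0.385 to 0.399 of BxPC3 with SUIT2. Replicate 2 gave 0.456 and 0.449. The Panc327 pair itself had 0.519 over the genome, against 0.814 for BxPC3 and 0.868 for SUIT2. At the high end alone the mean was again highest for BxPC3 and Panc327, at 0.648, against 0.543 for BxPC3 and SUIT2 and 0.506 for Panc327 and SUIT2.

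The local background that the fold of a peak is measured against can move with the number of copies of a locus. It was recovered from fold and −log10 p for peaks with a −log10 p under 250. The median ratio to the genome-wide level was 1.04 and 1.00 in BxPC3, 1.19 and 1.40 in Panc327 replicates 1 and 2, and 1.00 and 1.12 in SUIT2. Over other peaks of the same lists, those below the median −log10 p, the median ratios were 1.18 and 1.07, 1.20 and 1.30, and 1.08 and 1.00. At the BxPC3 peaks of the middle it was 1.02 and 1.15. The background is known only at called peaks and has the genome-wide level as its lower bound, and a loss of DNA over the middle in Panc327 or SUIT2 was not tested.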

How the data were processed

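The tools were MACS2, Bowtie 1.1.1 and bcl2fastq 1.8.4, with the hg19 build, per the submitters' processing notes. No MACS2 version or setting is given in the sources used here. Each H3K27ac library had its own deposited narrowPeak list, so peaks were called per library. The fold of each peak is the authors' deposited ratio of pile-up to local background. Each peak's −log10 q-value and −log10 p-value are likewise as the authors deposited them. The deposited summit offset was used for summits. Where a library had several peaks in a region, the summit of the peak with the highest −log10 q was taken. Peaks on the autosomes and X were used.

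From these lists, peaks sharing at least 1 bp were merged over the genome and each region was classed by the libraries with a peak in it. Covered lengths were cut at the edges of the interval. Pile-up and background were solved from fold, with a pseudocount of 1, and the Poisson p, to within 0.001 of the −log10 p for whole reads. BxPC3 pile-ups needed a fitted scale of 0.752 and 0.652, and in the interval a tolerance of 0.005. Of 4000 peaks drawn from those below the median −log10 p of each list, 100% were solved, except 99.975% in SUIT2 replicate 2. The code was tested on simulated data. The software was matplotlib 3.10.9, scipy 1.17.1, pandas 2.3.3 and numpy 2.4.6 under Python 3.11.15.

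The interval, genes and lists were chosen with earlier results of these data known. Regions were named by position: all called in all 6 libraries, the 8 most covered regions held by 1 line alone, the 5 widest regions of each pair of lines, the peak with the highest fold and the widest peak per library, and the longest empty stretches. Alternatives were a −log10 q of at least 20, equal numbers of peaks, 50% overlap, merging within 500 bp, summits in the interval, and leaving out each library.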

Additional observations from a re-analysis of the deposited data

How the results depend on the processing

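The BxPC3-only count of 28 regions ranged from 20 to 36 over the 11 alternatives, staying within 1.5 times: 21 at a −log10 q of at least 20, 20 with the same 27776 peaks from each list, 24 with peaks within 500 bp merged, and 28 to 36 when a library was left out, highest without BxPC3 replicate 1. Panc327-only regions went from 1 to 0 with merging within 500 bp. SUIT2-only regions went from 0 to 2 at a −log10 q of at least 20, to 4 when a library counted only if its peaks filled 50% or more of a region, and 0 to 1 when a library was left out (1 without Panc327 replicate 1 and 1 without SUIT2 replicate 2). Regions called in all 6 libraries went from 9 to 5 with 50% overlap and to 10 with merging within 500 bp. When a library was left out, regions called in all that remained numbered 9 to 11. A line with 1 library left was then counted by that library alone. The small classes of exactly 2 lines moved more: BxPC3 with Panc327 went from 4 to 2 at a −log10 q of at least 20 and to 1 with 50% overlap, BxPC3 with SUIT2 went from 2 to 0 with equal numbers of peaks and to 4 without Panc327 replicate 1, and Panc327 with SUIT2 went from 1 to 0 under 4 settings and to 2 without Panc327 replicate 2. Regions called in a single library of some line went from 14 to 6 when 1 BxPC3 replicate (1 or 2) was left out, to 9 when 1 Panc327 replicate (1 or 2) was left out and to 8 with merging within 500 bp. Mean peak numbers at a −log10 q of at least 20 fell to 41.5 for BxPC3, 15.5 for Panc327 and 16.5 for SUIT2, and with equal numbers of peaks 41 in BxPC3 and 17 in SUIT2. BxPC3 covered 80.5 and 80.2 kb under those settings. Leaving out a library kept the mean index within lines at 0.743 to 0.868 and between lines at 0.382 to 0.431. No paired analysis was possible because the counts and lengths come from no test. The planned count of genes with a peak at their start, and its wider window, were not run because no hg19 gene positions were used. The lists state no depth, so absence of a peak is bounded only by the calling threshold.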
